A study of Mus musculus with 6 samples.

Results

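The genes described here were 10 members of the fibroblast growth factor (FGF) family in healing mouse tendon, chosen by gene symbol from the 53819 genes of the count table. The 6 ligands were *Fgf1*, *Fgf2*, *Fgf7*, *Fgf9*, *Fgf10* and *Fgf18*, and the 4 receptors were *Fgfr1*, *Fgfr2*, *Fgfr3* and *Fgfr4*. Whole flexor digitorum longus (FDL) tendons were sequenced as bulk RNA on day 28 after transection and repair in the hind paw, with 3 libraries of depleted mice and 3 of littermates. The depleted mice were Scx-Cre+; DTR F/+ (DTRScxLin, here DTR), in which constitutive Scx-Cre, active wherever the tendon transcription factor gene *Scx* is or was expressed, opens a loxP-STOP cassette in front of the diphtheria toxin receptor. The littermates were Scx-Cre-; DTR F/+ (WT), which carried the same unrecombined allele and received the same toxin. Diphtheria toxin was given to both groups at 100 ng per day in 5 injections from day 14 to day 18, to male and female mice of 10 to 12 weeks. Each library held 1 tendon, so the p-values measure the spread between 3 mice per group. The sample titles count day 28 from the depletion, while the treatment description counts it from surgery. Since each library was whole tissue, fewer cells of a type and less RNA per cell cannot be told apart.

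FGF ligands are secreted proteins that bind receptor tyrosine kinases together with heparan sulphate on the cell surface. The receptors signal through the adaptor Frs2 to the RAS-ERK cascade, and ERK induces both transcription factors of the Etv family and inhibitors of the Sprouty, Spred and Dusp families that damp the signal. *Fgf1* and *Fgf2* encode ligands that lack a classical secretion signal, *Fgf7* and *Fgf10* encode mesenchymal ligands of the epithelial form of FGFR2, and *Fgf9* and *Fgf18* encode ligands that act on mesenchymal forms of the receptors. In the embryo FGF signals from the myotome, the source of muscle, induce *Scx* in tendon progenitors. Counts per gene do not separate the epithelial and mesenchymal splice forms of the receptors.

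The total count per library ranged from 42744138 to 48854310, and all 10 genes passed the filter on low counts. The tendon cell markers *Scx*, *Mkx*, *Tnmd*, *Fmod*, *Kera* and *Chad* were detected, and their summed level, mostly *Fmod* and *Tnmd*, was 6690 to 8921 CPM (counts scaled to a common library size) in WT and 6763 to 8787 CPM in DTR. Single markers went different ways without overlap between the groups, with DTR levels of 1.31 times WT for *Scx*, 1.35 times for *Kera* and 0.373 times for *Chad*, and none of these passed edgeR's test. Transcripts of muscle and skin differed widely from library to library. The sum of 15 skeletal muscle genes was 22507, 19398 and 16100 CPM in WT replicates 1, 2 and 3, and 2858, 20053 and 4926 CPM in DTR replicates 1, 2 and 3. The sum of 12 keratinocyte genes was 2812, 1706 and 9.74 CPM in WT and 11.0, 13.0 and 265 CPM in DTR. The part of these tissues in the results was not tested, and their values are given beside some of the genes. Of the other lists, all 7 adipocyte genes and all 6 smooth muscle and pericyte genes had lower fitted values in DTR, with medians of -2.28 and -0.37 on the log2 scale.

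Levels were compared between genes as CPM per kilobase of merged exons, averaged over the 6 libraries. *Fgfr1*, the receptor of mesenchymal cells, was highest of the 10 at 33.0 CPM per kilobase (range 29.8 to 36.3). *Fgf7* was second at 7.21 CPM per kilobase (5.51 to 10.7), and *Fgfr1* was 4.58 times as high. The ranges of these genes did not overlap. That of *Fgf7* did not overlap the next gene, *Fgf2*, but overlapped that of *Fgfr2* (1.24 to 6.02). The next places were held by *Fgf2* at 3.93 CPM per kilobase, *Fgf1* at 3.87, *Fgf18* at 3.80 and *Fgfr2* at 3.56, whose ranges overlapped from each to the next. The lower places were held by *Fgfr3* at 1.13 CPM per kilobase, *Fgf9* at 0.923, *Fgf10* at 0.315 and *Fgfr4* at 0.248, and neighbours there overlapped as well. With the longest transcript as the length, *Fgfr1* and *Fgf7* kept places 1 and 2. *Fgfr2* moved from place 6 to place 3 with 8.30 CPM per kilobase, close to the 8.76 of *Fgf7*. The tendons thus held 1 predominant receptor transcript and several ligand transcripts at like levels.

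**Figure D1:**
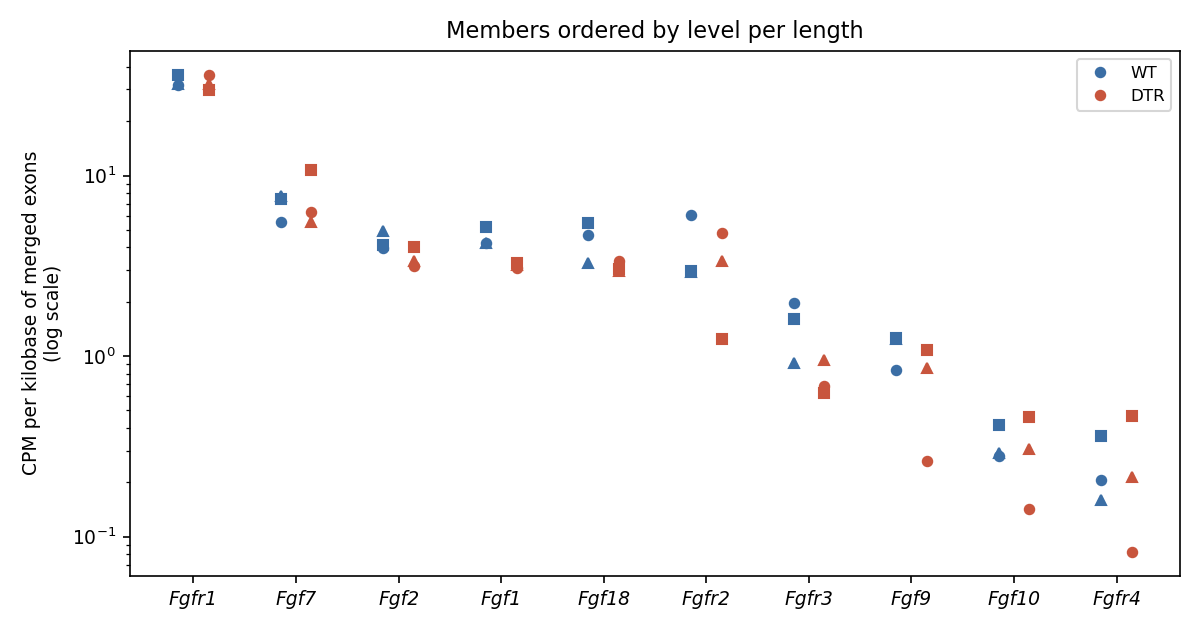
Level of each FGF ligand and receptor as CPM per kilobase of merged exons on a log axis, with 1 point per library (blue WT, red DTR; circle, square and triangle for replicates 1, 2 and 3). *Fgfr1* lies between 29.8 and 36.3 in all 6 libraries, above every library of every other gene, and *Fgfr4* is lowest on average at 0.248.

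The promoter sequences of the 3 members with the smallest unadjusted p among the 8 that had a usable entry in the RefSeq table are shown. They let the family be read against its regulatory sequence. *Fgf1* and *Fgfr1* had no entry. Each sequence runs from 250 bases before to 50 bases after the start in build GRCm38.p6, 5′ to 3′ along the gene. Capitals mark the E-box (CANNTG, the motif bound by basic helix-loop-helix factors such as Scx) and the GC box (GGGCGG) on either strand. The build of the deposited counts is not given in the sources used here. The windows lie at chr5:33721474-33721773 on the plus strand for *Fgfr3* (the first of its starts), at chr3:37348403-37348702 on the plus strand for *Fgf2* and at chr11:33147351-33147650 on the minus strand for *Fgf18*.
Fgfr3: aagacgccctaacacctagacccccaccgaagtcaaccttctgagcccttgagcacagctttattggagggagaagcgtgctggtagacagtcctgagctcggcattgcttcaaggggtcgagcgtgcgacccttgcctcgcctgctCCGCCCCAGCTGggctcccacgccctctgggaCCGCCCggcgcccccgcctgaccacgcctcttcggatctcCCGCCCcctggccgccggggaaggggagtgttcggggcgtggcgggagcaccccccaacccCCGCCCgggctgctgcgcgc
Fgf2: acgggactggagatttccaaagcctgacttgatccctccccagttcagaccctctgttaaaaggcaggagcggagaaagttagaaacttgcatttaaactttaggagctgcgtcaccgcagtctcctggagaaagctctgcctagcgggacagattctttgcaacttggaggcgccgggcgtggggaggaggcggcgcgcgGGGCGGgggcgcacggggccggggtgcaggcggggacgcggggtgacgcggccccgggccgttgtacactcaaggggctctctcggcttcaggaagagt
Fgf18: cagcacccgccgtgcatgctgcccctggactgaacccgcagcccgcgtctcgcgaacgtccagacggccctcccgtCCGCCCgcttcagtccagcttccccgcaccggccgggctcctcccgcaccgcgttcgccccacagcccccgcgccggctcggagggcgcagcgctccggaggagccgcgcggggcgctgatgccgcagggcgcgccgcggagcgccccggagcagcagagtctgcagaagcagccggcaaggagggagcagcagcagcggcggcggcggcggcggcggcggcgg

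The *Fgfr3* window shown held 1 E-box and 4 GC boxes, and its E-box directly followed 1 of the GC boxes. The window at the other *Fgfr3* start held 0 E-boxes and 2 GC boxes at a GC content of 73%. The *Fgf2* and *Fgf18* windows each held 1 GC box and no E-box. An E-box was present in 72.31% of all 32851 promoters in the table and a GC box in 35.66%, so a match to these short letters is common. The GC content was 69.67% for *Fgfr3*, 62.67% for *Fgf2* and 78.67% for *Fgf18*, against a median of 52.67% over all promoters. The *Fgfr2* window, by contrast, held 3 E-boxes at a GC content of 43.67%. These are matches of letters and no binding was measured.

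Between DTR and WT tendons none of the 10 genes passed edgeR's quasi-likelihood test at an adjusted p of 0.05, where the share called among all 17496 genes tested was 0.00%. The smallest adjusted p over all genes was 0.199. An unadjusted p under 0.05 was reached by 3 of the 10, *Fgf1*, *Fgf2* and *Fgfr3*, all with lower values in DTR, against 11.0% of all genes in either direction. DESeq2, the count test that the authors used at the same threshold, called 2 of the 10, *Fgf1* and *Fgfr3*, against 2.65% of all genes. In 1 of the 10 genes, *Fgf1*, all DTR libraries lay below all WT libraries, as in 7.85% of all genes. None of the 10 lay above without overlap, as 8.96% of all genes did.

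**Figure D2:**
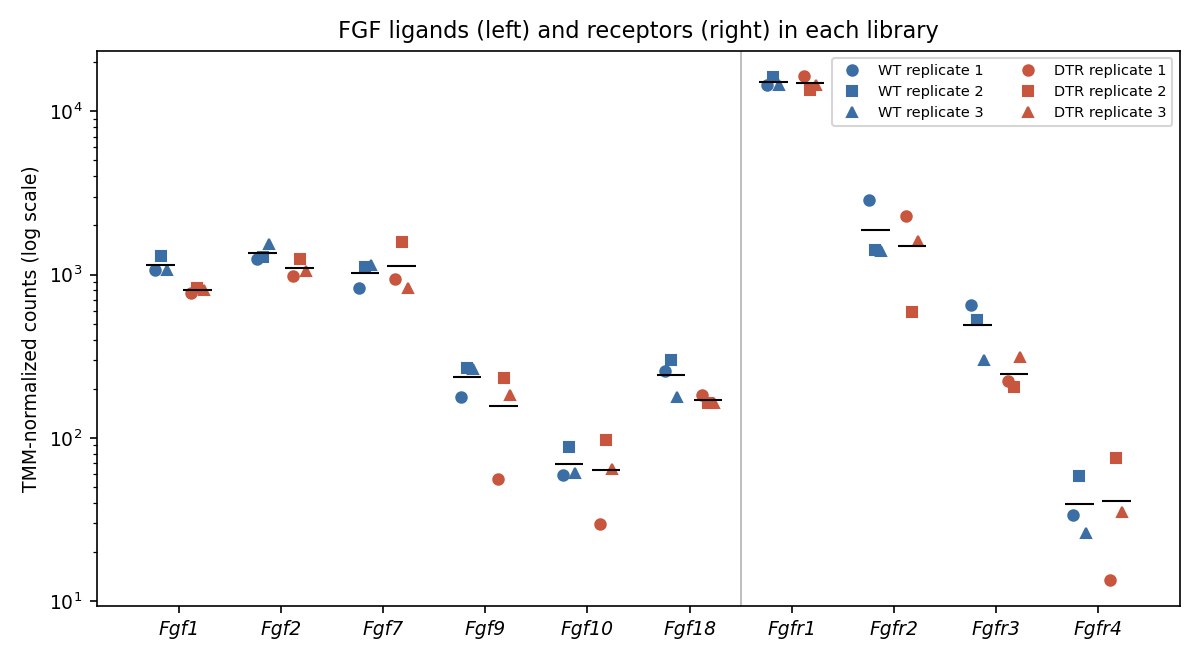
TMM-normalized counts of the 6 ligands (left) and 4 receptors (right) on a log axis, with 1 point per library (blue WT, red DTR; circle, square and triangle for replicates 1, 2 and 3) and a bar at each group mean. The groups are apart in *Fgf1* alone, with WT at 1062 to 1296 and DTR at 772 to 824.

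Among the ligands, *Fgf1*, which encodes a ligand of all the FGF receptors, had the smallest p. Its normalized counts were 1065, 1296 and 1062 in WT replicates 1, 2 and 3, and 772, 824 and 803 in DTR replicates 1, 2 and 3. Every DTR library was below every WT library, and the DTR libraries lay close together. The means were 1141 ± 134 in WT and 799 ± 26.0 in DTR (SD, n = 3 each), a DTR level of 0.701 times WT. The log2 fold change was -0.51 ± 0.11 (SE) (edgeR's quasi-likelihood test, adjusted p = 0.274). DESeq2 gave an adjusted p of 0.0188. The log2 fold change stayed between -0.56 and -0.41 in all 17 alternative analyses, each with an unadjusted p under 0.05. Without overlap, 6 of 7 adipocyte genes were lower in DTR, as 7.85% of all genes were, and the groups overlapped in *Fabp4*. The 7 summed to 134 to 195 CPM in WT and 90.1 to 151 CPM in DTR, mostly *Fabp4*. The median log2 fold change of the 7 was -2.28, and their part in the *Fgf1* difference was not tested. With the skeletal muscle level as a covariate the log2 fold change of *Fgf1* was -0.47 ± 0.15. That covariate, a mean log2 CPM, was 9.71 to 10.2 in WT and 7.24, 9.99 and 7.86 in DTR replicates 1, 2 and 3. Of the DTR libraries only replicate 2 lay in the WT range. Fits with this covariate thus separate muscle level from genotype mainly through that library.

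*Fgf2*, the ligand long known as basic FGF and a mitogen of fibroblasts, had 1237, 1282 and 1532 normalized counts in WT, against 979, 1251 and 1051 in DTR. DTR replicate 2 lay between the WT libraries and the other DTR libraries lay below all of them. On the log2 scale the fold change was -0.30 ± 0.13 (edgeR's quasi-likelihood test, adjusted p = 0.453). *Nudt6*, a gene on the opposite strand, shares 640 bases with the *Fgf2* exons (9.44% of them), and it had 288, 277 and 317 normalized counts in WT, against 228, 241 and 228 in DTR. The strand setting of the counting is not given in the sources used here, so reads in that overlap are uncertain for both genes. With the skeletal muscle covariate the *Fgf2* log2 fold change was -0.15 ± 0.15.

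*Fgf18*, a ligand known for its role in cartilage and bone, had 256, 299 and 178 normalized counts in WT, against 182, 165 and 162 in DTR. The DTR libraries were close to each other and to WT replicate 3, and WT replicates 1 and 2 lay above them. The means were 244 ± 61.7 in WT and 170 ± 11.0 in DTR (SD, n = 3 each). The log2 fold change was -0.53 ± 0.23 (edgeR's quasi-likelihood test, adjusted p = 0.460). WT replicates 1 and 2 were also the libraries with the most keratinocyte transcripts. DTR replicate 3, next at 265 CPM of keratinocyte genes, had the lowest *Fgf18* count. A comparison without WT replicates 1 and 2 was chosen after the data were seen and leaves 1 WT library, assumed to vary like the others. In it the log2 fold change of *Fgf18* was -0.07. The libraries removed were also the highest for *Fgf18*, so a smaller difference was fixed by that choice.

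*Fgf9* encodes a ligand that acts between tissue layers in development. It had 179, 269 and 264 normalized counts in WT, against 55.7, 231 and 183 in DTR. DTR replicate 1 was far below the other 5 libraries and was also the library with the least muscle transcript. The other libraries did not follow the order of the muscle sum. *Fgf9* was 183 in DTR replicate 3, at 4926 CPM of muscle genes, and 179 in WT replicate 1, at 22507 CPM. On the log2 scale the fold change was -0.60 ± 0.49 (edgeR's quasi-likelihood test, adjusted p = 0.665), and 0.02 ± 0.55 with the skeletal muscle covariate. *Fgf7*, which encodes the keratinocyte growth factor secreted by fibroblasts, had 822, 1108 and 1152 normalized counts in WT, against 943, 1593 and 828 in DTR. The groups overlapped and DTR replicate 2 was highest. Its log2 fold change was 0.13 ± 0.27 with an adjusted p of 0.893, against 0.51 ± 0.24 with the skeletal muscle covariate. *Fgf10*, which encodes a ligand needed for limb outgrowth, was the scarcest ligand, at 58.9, 87.6 and 61.3 normalized counts in WT, against 29.9, 96.6 and 64.7 in DTR. The DTR libraries of *Fgf10* spanned the WT libraries on both sides, with a log2 fold change of -0.12 ± 0.43 and an adjusted p of 0.942.

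Among the receptors, *Fgfr1*, the predominant one, had 14468, 16279 and 14498 normalized counts in WT, against 16438, 13511 and 14539 in DTR. The means were 15082 ± 1037 and 14829 ± 1485 (SD, n = 3 each), and the groups overlapped throughout. The log2 fold change was -0.02 ± 0.11 (edgeR's quasi-likelihood test, adjusted p = 0.955). *Fgfr1* was also the steadiest of the 10 genes, since its highest library was 1.217 times its lowest, against 1.56 times for *Fgf2* and 5.64 times for *Fgfr4*.

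*Fgfr3*, a receptor best known as a brake on growth plate cartilage and also expressed in skin, had the log2 fold change farthest from 0 of the 10. Its normalized counts were 649.6, 525 and 301 in WT and 224, 206 and 313 in DTR. WT replicates 1 and 2 were far above the other 4 libraries, and WT replicate 3 lay below DTR replicate 3. The means were 492 ± 176 in WT and 248 ± 57.7 in DTR (SD, n = 3 each), a DTR level of 0.503 times WT. On the log2 scale the fold change was -0.99 ± 0.30 (edgeR's quasi-likelihood test, adjusted p = 0.368), and DESeq2 gave an adjusted p of 0.0321. Its 3 highest libraries were also the 3 highest in the keratinocyte sum, in the same order. These were WT replicates 1 and 2 with 2812 and 1706 CPM and then DTR replicate 3 with 265 CPM. The other libraries did not follow that order. WT replicate 3 had the lowest keratinocyte sum, 9.74 CPM, and its *Fgfr3* count of 301 was above the 224 and 206 of DTR replicates 1 and 2. With the keratinocyte level as a covariate the log2 fold change of *Fgfr3* was -0.57 ± 0.16 (adjusted p = 0.561). Without WT replicates 1 and 2, leaving 1 WT library, it was -0.28 ± 0.33. The libraries removed there were the highest for *Fgfr3*, so a smaller difference was fixed by that choice.

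*Fgfr2*, whose epithelial form receives FGF7 and FGF10, had 2854, 1410 and 1386 normalized counts in WT, against 2293, 590.2 and 1594 in DTR. The groups overlapped, with the highest value in WT replicate 1 and the lowest in DTR replicate 2. The log2 fold change was -0.34 ± 0.60 (edgeR's quasi-likelihood test, adjusted p = 0.873). Without WT replicate 1 it was 0.09, and with the skeletal muscle covariate it was -1.55 ± 0.74. The highest *Fgfr2* libraries, unlike those of *Fgfr3*, were not the highest in the keratinocyte sum. DTR replicate 1, at 11.0 CPM of keratinocyte genes, had the second highest *Fgfr2* value. The annotation places 314 bases of the *Fgfr2* exons (3.04%) in exons of *Ctbp2* on the same strand, so reads there are uncertain. *Fgfr4*, the receptor known from liver and regenerating muscle, had 33.5, 58.4 and 26.0 normalized counts in WT, against 13.4, 75.6 and 34.9 in DTR. It was lowest in DTR replicate 1, the library with the least muscle transcript. The other libraries did not follow the order of the muscle sum. *Fgfr4* was 34.9 in DTR replicate 3, at 4926 CPM of muscle genes, and 26.0 in WT replicate 3, at 16100 CPM. Its log2 fold change was 0.07 ± 0.62 with an adjusted p of 0.977, against 0.99 ± 0.55 with the skeletal muscle covariate.

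**Figure D3:**
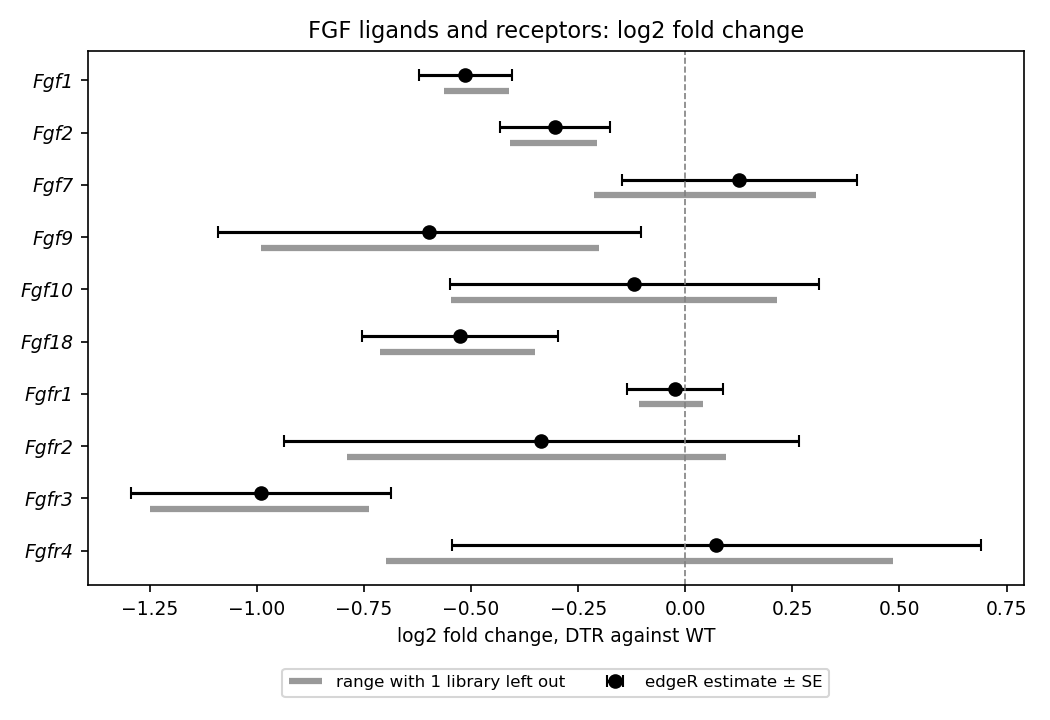
The edgeR log2 fold change of each gene, DTR against WT (points, bars ± SE), with the range when 1 library at a time is left out (grey). The ranges of *Fgf1*, *Fgf2*, *Fgf9*, *Fgf18* and *Fgfr3* stay below 0, while those of the other 5 cross it.

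**Figure D4:**
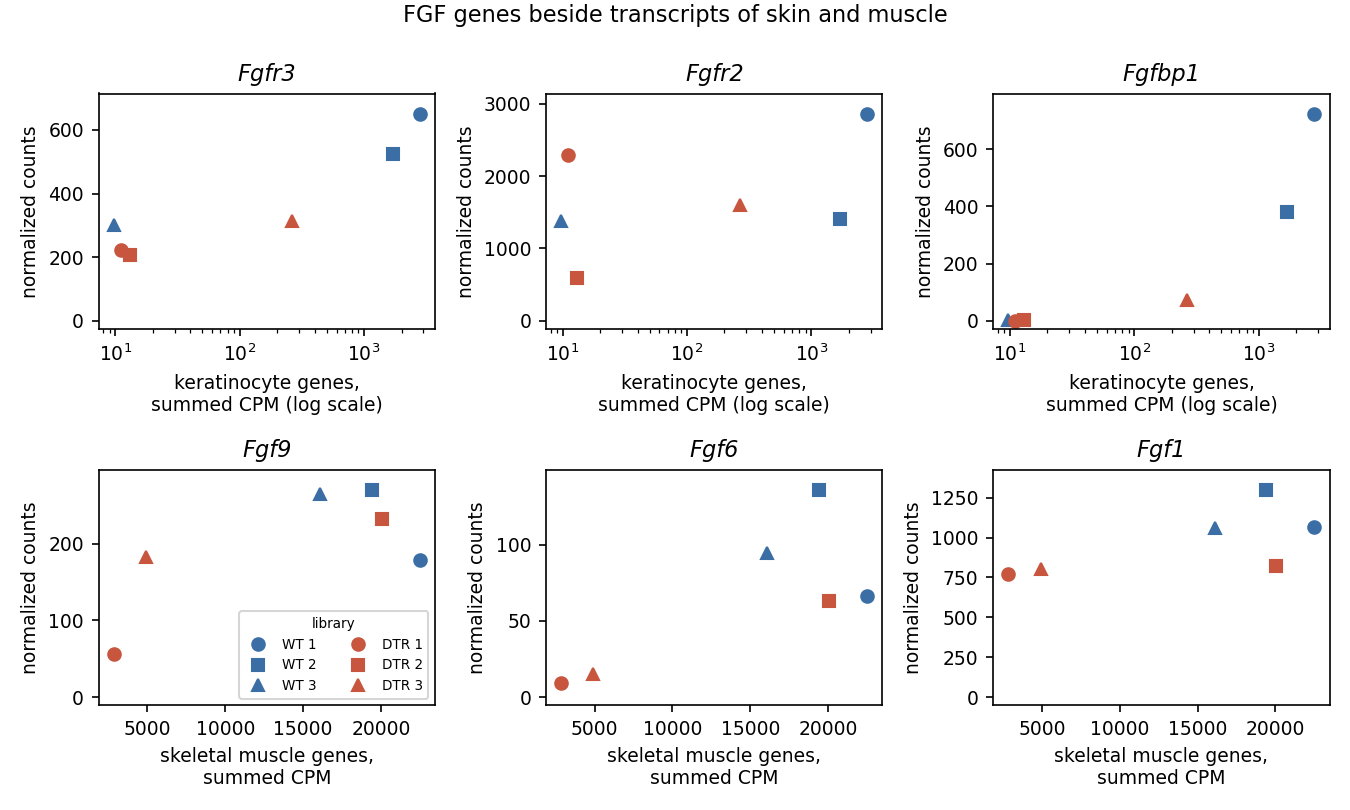
Normalized counts of 6 FGF genes in each library (blue WT, red DTR; circle, square and triangle for replicates 1, 2 and 3) against the summed CPM of 12 keratinocyte genes (upper row, log axis) or 15 skeletal muscle genes (lower row, linear axis). *Fgfr3* and *Fgfbp1* are highest in WT replicates 1 and 2, at 2812 and 1706 CPM of keratinocyte genes. *Fgf9* and *Fgf6* are lowest in DTR replicate 1, at 2858 CPM of muscle genes. The *Fgf9* value of DTR replicate 3, at 4926 CPM, lies near that of WT replicate 1, at 22507 CPM.

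The makeup of the receptor and ligand pools, taken as sums of CPM per kilobase, was compared with an exact two-sided permutation test over the 20 splits of 3 against 3, which cannot go below p = 0.1. The receptors summed to 39.0 ± 2.62 in WT and 36.9 ± 4.87 in DTR (exact p = 0.7), and the ligands to 21.7 ± 2.17 and 18.4 ± 3.61 (exact p = 0.3). *Fgfr1* made up 85.5% ± 5.13 of the receptor pool in WT and 89.0% ± 3.28 in DTR (exact p = 0.6). The *Fgfr3* share was 2.55% to 4.93% in WT and 1.63% to 2.61% in DTR (exact p = 0.2). Receptor makeup was thus set by *Fgfr1* in both groups, whereas the ligand pool was divided among several genes. *Fgf7* made up 31.7% ± 3.74 of the ligand pool in WT and 40.1% ± 6.72 in DTR (exact p = 0.2), and *Fgf1* made up 21.0% ± 1.23 and 17.7% ± 2.75 (exact p = 0.2). All 10 shares overlapped between the groups, and the smallest p adjusted by Benjamini and Hochberg over the 10 permutation tests was 0.667.

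The genes whose pattern over the 6 libraries was most like that of *Fgf7*, the highest ligand, were *Zxdb*, *Plekha6* and *Dact2*, with root-mean-square differences of centred log2 CPM of 0.09, 0.11 and 0.11 among 14408 genes compared. For *Fgfr1*, the highest receptor, they were *Snx33*, *Nudt11* and *Brd3*, at 0.02, 0.02 and 0.03. *Fgfr1* varied little over the libraries (SD of 0.11 in log2 CPM, against 0.36 for *Fgf7*), so a steady gene lies close to it. Whether these genes share regulation was not tested.

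The rest of the pathway was described by lists of genes, in all of which edgeR called 0 genes. Beside the members, 5 of 72 tested genes of these lists (6.94%) had an unadjusted p under 0.05 (*Fgf6*, *Fgf22*, *Fgf13*, *Gab1* and *Spred1*), below the 11.0% of all genes. DESeq2 called 1 of the 72 (1.39%), *Fgf22*, against 2.65% of all genes. The fitted log2 fold change had a median of -0.41 over the 6 ligands and -0.18 over the 4 receptors, against 0.01 over all genes tested, and with the skeletal muscle covariate these medians were -0.06 and -0.62. Of the 12 other secreted ligands, 5 passed the filter on low counts, 2 with higher and 3 with lower fitted values in DTR. *Fgf6*, a ligand largely restricted to skeletal muscle, had 66.0, 136 and 94.6 normalized counts in WT, against 9.28, 63.1 and 15.4 in DTR. All DTR libraries of *Fgf6* lay below WT, and the lowest were the libraries with the least muscle transcript. The WT libraries did not follow the order of the muscle sum. *Fgf6* was 66.0 in WT replicate 1, at 22507 CPM of muscle genes, and 94.6 in WT replicate 3, at 16100 CPM. Its log2 fold change was -1.74 ± 0.71 (edgeR's quasi-likelihood test, adjusted p = 0.452). *Fgf22*, known as a ligand of skin and neurons and named here after its values were seen because DESeq2 called it (adjusted p = 0.0438), had 66.0, 51.8 and 6.24 normalized counts in WT, against 4.12, 2.87 and 10.3 in DTR. As with *Fgfr3*, its high libraries were WT replicates 1 and 2. *Fgf16*, the other named gene of the list, had a log2 fold change of 0.13.

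*Fgf13*, which encodes an intracellular FGF homologous factor that binds sodium channels rather than receptors, had 1037, 966 and 826 normalized counts in WT, against 567, 782 and 464 in DTR. The groups did not overlap, and its log2 fold change was -0.64 ± 0.20 (edgeR's quasi-likelihood test, adjusted p = 0.365). *Fgf11* of the same family had a log2 fold change of 0.07. Among 6 tested co-receptors and extracellular regulators, 2 had higher and 4 lower fitted values. *Fgfbp1*, which encodes a carrier that frees FGFs from heparan sulphate, had 722, 381 and 3.12 normalized counts in WT, against 0, 2.87 and 73.0 in DTR, in the order of the keratinocyte sum except among the libraries near 0. Its log2 fold change was -3.87 ± 2.30 with an adjusted p of 0.575. *Flrt3* and *Flrt2*, which encode membrane proteins that bind FGF receptors, had log2 fold changes of 0.31 and 0.18, and that of *Fgfbp3* was -0.32.

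Of 19 tested genes for heparan sulphate carriers and modifiers, 11 had higher and 8 lower fitted values, with a median of 0.05. *Sulf1*, which encodes a sulphatase that trims heparan sulphate, had a log2 fold change of 0.42 ± 0.21 and the syndecan *Sdc2* one of 0.33 ± 0.15. Their adjusted p-values were 0.495 and 0.474 in edgeR's quasi-likelihood test. The glypican *Gpc3* had a log2 fold change of -0.45 ± 0.50 and *Sdc1* one of -0.14. The 20 adaptors and RAS-ERK genes had a median of 0.01, with 11 higher and 9 lower. *Gab1*, which encodes a docking protein of the receptor complex, had 2238, 2550 and 2252 normalized counts in WT, against 1937, 1928 and 1911 in DTR. All its DTR libraries lay below WT, with a log2 fold change of -0.29 ± 0.08 (adjusted p = 0.353 in edgeR's quasi-likelihood test), and it was the only gene of that list with an unadjusted p under 0.05. The other named genes of that list were *Shc1* at 0.18, *Sos1* at 0.13 and *Sos2* at -0.22 on the log2 scale.

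Of 19 tested feedback and target genes of FGF and ERK signalling, 14 had higher and 5 lower fitted values in DTR. Fitted values were higher in 9017 and lower in 8479 of all 17496 genes tested. The median log2 fold change of the 19 was 0.13, the highest of the lists. In 4 of the 19, *Egr1*, *Spred1*, *Dusp6* and *Il17rd*, all DTR libraries lay above all WT libraries, as in 8.96% of all genes, and these genes other than *Egr1* were named after their values were seen. *Egr1*, an immediate early transcription factor gene, had 7751, 4477 and 3420 normalized counts in WT, against 7930.3, 8185 and 7934 in DTR. The DTR libraries were close together and WT replicate 1 was near them. Its log2 fold change was 0.62 ± 0.30 (edgeR's quasi-likelihood test, adjusted p = 0.492). *Spred1*, which encodes an inhibitor of RAS activation, had 4909.7, 4610.3 and 4958 normalized counts in WT, against 6369, 5768 and 5271 in DTR. It was the only gene of the list with an unadjusted p under 0.05 (log2 fold change 0.27 ± 0.09, adjusted p = 0.405 in the same test). *Dusp6*, which encodes the ERK phosphatase, had a log2 fold change of 0.26 ± 0.12 (adjusted p = 0.477), and *Il17rd*, which encodes a membrane inhibitor of FGF signalling, one of 0.16 ± 0.09 (adjusted p = 0.521). *Fos* followed at 0.46 ± 0.36, and the ETS factor genes *Etv1* and *Etv4*, which FGF signalling induces in many tissues, had values of -0.25 ± 0.18 and -0.21 ± 0.28. The medians were thus below 0 for the ligands and receptors and above 0 for the targets. They were also above 0 for the heparan sulphate genes (0.05), the adaptors (0.01) and all genes tested (0.01). No gene of these lists passed edgeR's test.

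**Figure D5:**
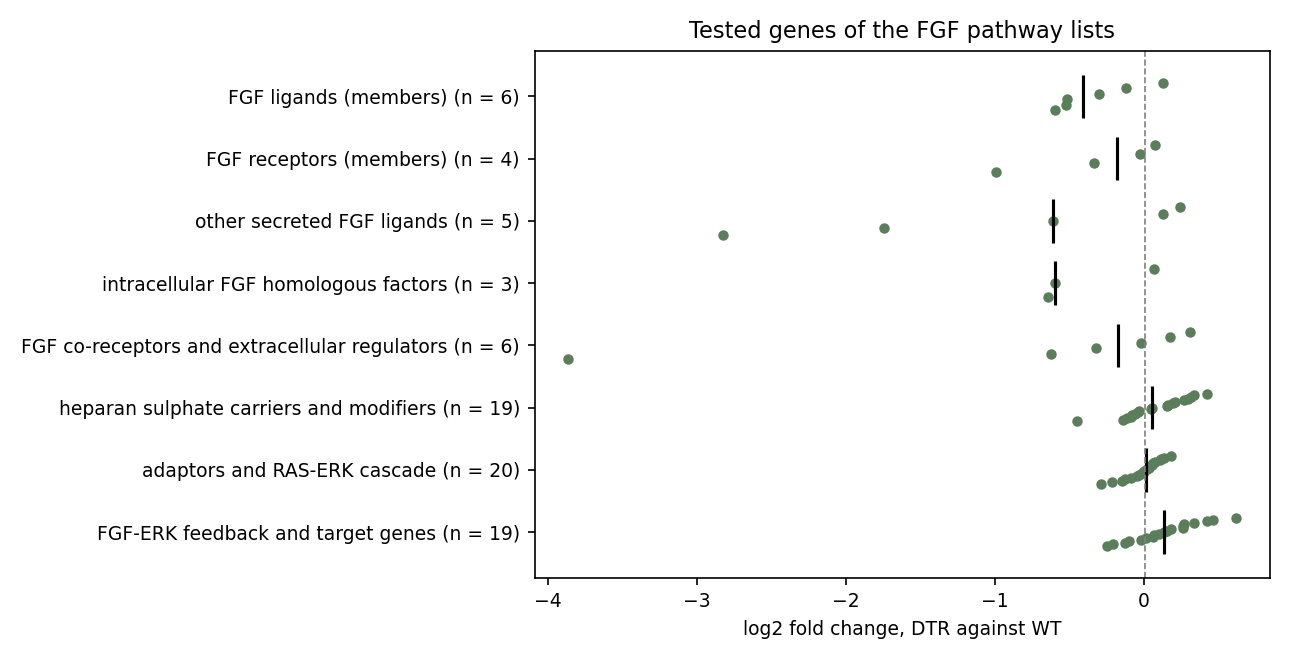
The edgeR log2 fold change, DTR against WT, of each tested gene (points) in 8 lists of the FGF pathway, with the median of each list (black bar). The medians run from -0.61 for the other secreted ligands to 0.13 for the feedback and target genes, and *Fgfbp1* lies farthest out at -3.87.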

How the data were processed

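Bulk RNA-seq libraries of 3 DTR and 3 WT FDL tendons were made from 200 ng total RNA. Per the labels the kit was TruSeq Stranded mRNA, and a SMARTER kit is also named. The authors cleaned single-end reads with FastP, counted them with featureCounts and deposited raw counts per gene, together with a signal table of the counts divided by DESeq2 size factors (DESeq2 1.22.1). The aligner, build, annotation and strand setting are not given in the sources used here.

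Of 53819 genes, 30758 had a count. Counts were tested in R 4.3.3 with edgeR 4.0.16 (filterByExpr, TMM, robust quasi-likelihood fit, genotype as the only term) over 17496 genes, with Benjamini-Hochberg adjustment and a threshold of 0.05. SE is the absolute log2 fold change over the square root of F. Normalized counts are TMM-scaled to the mean library size. Gene lengths came from GENCODE vM21. DESeq2 1.42.0 and limma 3.58.1 gave alternatives, and the deposited normalized counts were tested in limma as log2(value + 1). The covariates were the mean log2 CPM of the skeletal muscle or of the keratinocyte genes in each library. The tests were first checked on simulated data. The members and lists were chosen with earlier results of these data known. Pathway genes were named where edgeR called them or where they held the 2 highest or 2 lowest log2 fold changes of a list at a mean of at least 50 normalized counts. For the highest ligand and receptor per length, the 3 genes of most similar pattern were named. No replicate pair agreed within sampling noise. One feedback gene of the list was not analysed here.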

Additional observations from a re-analysis of the deposited data

How the results depend on the processing

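The log2 fold changes of *Fgf1*, *Fgf2*, *Fgf18* and *Fgfr3* kept their sign in all 17 alternatives, and the cause of the changes below was not tested. DESeq2 called 197 genes higher and 269 lower, 2 of them FGF members, and without a filter on low counts edgeR called 45 and 38, with 0 members. With the replicate block 1 gene was lower, and *Fgfr4* was -0.13. Same-numbered libraries did not deviate together (correlations of -0.19, -0.15 and -0.68). The deviations were centred on 3 libraries per group, and muscle and skin transcripts differed between the libraries. These correlations therefore cannot tell whether the numbers pair samples. *Fgfr4* was -0.16 in limma-voom and -0.16 with the deposited normalized counts in limma. With the skeletal muscle covariate *Fgf9* was 0.0208, *Fgf10* 0.52, *Fgf7* 0.51, *Fgfr4* 0.99 and *Fgfr2* -1.55, and the medians were -0.0630 for ligands, -0.62 for receptors, 0.0133 for intracellular factors, -0.0764 for heparan sulphate genes and -0.0432 for adaptors. With the keratinocyte covariate *Fgf7* was -0.0880 and the other secreted ligands had a median of 0.14. That median was -1.48 without the filter and 0.12 with at least 10 counts in every sample. The median of intracellular factors was -0.27 in DESeq2, -0.26 without the filter and -0.29 with at least 10 counts. Without WT replicates 1 and 2, chosen after the data were seen, *Fgf7* was -0.0377, *Fgf10* 0.0576, *Fgfr1* 0.0332 and *Fgfr2* 0.11, and the medians were 0.11 for other secreted ligands and 0.13 for heparan sulphate genes.

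Leaving out 1 library at a time, edgeR called 0 to 103 genes higher and 0 to 441 lower, the upper ends without DTR replicate 2, the DTR library with the most muscle transcript, and no member. The log2 fold change ranged from -0.21 to 0.31 for *Fgf7*, from -0.55 to 0.21 for *Fgf10*, from -0.11 to 0.0403 for *Fgfr1*, from -0.79 to 0.0949 for *Fgfr2* and from -0.70 to 0.48 for *Fgfr4*. The medians ranged from -0.45 to -0.0410 for receptors, from -1.33 to -0.88 for other secreted ligands, from -0.87 to -0.35 for intracellular factors, from 0.0484 to 0.20 for heparan sulphate genes and from -0.0496 to 0.0492 for adaptors. The DTR minus WT share differences, in percentage points, ranged from -2.23 to 0.506 for *Fgf2*, from -0.125 to 0.456 for *Fgf10*, from -3.61 to 0.503 for *Fgfr2* and from -0.220 to 0.404 for *Fgfr4*.

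*Fgfr2* and *Fgfr4* had the largest standard errors of the members, 0.60 and 0.62 on the log2 scale, and muscle and skin transcripts differed between libraries.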
